A study of Selaginella kraussiana with 4 samples.

Results

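Loci preferential to the rhizophore tip are stretches of the draft *Selaginella kraussiana* genome chosen for a higher measured level in the rhizophore tip. The level was compared with those in the microphyll, the shoot tip and the stem. Of 26055 merged loci of at least 300 bp, 508 were chosen, and 31210 merged loci of any length were found in the whole series. Counts, ranks and shares of merged loci below are over those of at least 300 bp, unless another length is given. Loci that share a contig were counted at any length. A merged locus is made of all transcribed loci of the 4 libraries that overlap by at least 1 bp on a contig, and its level in a library is the sum of the FPKM values there (fragments per kilobase of transcript, scaled to 1000000 fragments). A locus was chosen if log2 of (FPKM + 1) in the rhizophore tip exceeded the highest such value of the other 3 tissues by at least 2, which is a difference of 4 times where the pseudocount is small against the FPKM. For low levels the pseudocount makes the difference smaller than the ratio. This difference is called the preference. The measured levels chose these loci, so their preference is a description and not a finding.

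Total RNA was taken from 4 tissues of *S. kraussiana*, a lycophyte grown at 26 ºC, and 1 library was sequenced from each. The labels call the tissues rhizophore, leaf, seedling and stem, and the study speaks of rhizophore tip, microphyll, shoot tip and stem. Where its methods count reads, they too name stem, leaf, rhizophore and "seeding". Leaf was taken as microphyll, and seedling as shoot tip because no other name was left for it. Whether the seedling library holds more than the shoot tip cannot be told from the labels. No label gives the number or age of the plants. Without a replicate of any tissue, no difference could be checked against the spread between plants, and p-values were not computed. In a whole tissue, fewer cells of a type and less RNA per cell cannot be told apart.

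The rhizophore is a leafless axis of *Selaginella* that arises from the meristem in the angle of a branch, grows down in response to gravity and forms the roots at its tip. The microphyll is the small leaf with a single vein of lycophytes, and the shoot tip holds the apical meristem from which stem and microphylls arise. Rhizophore tip and shoot tip are thus both growing apices, whereas microphyll and stem are mainly mature organs. The tables name no genes, so markers of these tissues could not be looked up, and loci are named here by contig and position, counted from 1 on the authors' draft contigs. No sequence of the contigs was used here, and no exon, intron or UTR is annotated.

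Per library, the tables list 29549 (rhizophore tip), 30999 (microphyll), 30393 (shoot tip) and 28860 (stem) loci. Bounds are listed with each FPKM and were assumed to be the customary 95% interval of Cufflinks. They cover the error of a single library, not differences among plants. Assuming a half-width of 2 Poisson standard deviations, the number of fragments behind a value follows from the interval. By this measure the libraries rest on 50.04 M (rhizophore tip), 53.6 M (microphyll), 58.2 M (shoot tip) and 47.3 M (stem) fragments, where M stands for a factor of 1000000. An FPKM on a locus shorter than the mean fragment, which was derived as 192.9 to 208 bp, rests on a small divisor, so short loci can have a high FPKM from few fragments. This derived length is shorter than the average insert length given in the study's methods, which casts doubt on the Poisson assumption, so the numbers of fragments, the library totals and the floor based on them are approximate.

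The 508 loci made up 1.95% of the merged loci of at least 300 bp. With FPKM rescaled to TPM, where the values of a library sum to 1000000, the rule called 146 loci, and with median-of-ratios factors it called 470. The pseudocount of 1 was kept in TPM, where values were lower than in FPKM, so it weighed more there. In the rhizophore tip the median level was 24.7 FPKM, with quartiles of 7.77 and 96.3. Over all merged loci of at least 300 bp it was 8.79 FPKM with those not assembled there included, and 13.0 FPKM without them. The rule admits no locus below 3 FPKM in the rhizophore tip, so the higher median follows in part from the rule. The lowest of the 508 had 3.01 FPKM and the highest 26776 FPKM. In each other tissue the median was 0, because many were not assembled there. Of the 508, the microphyll library listed 193, the shoot tip library 253 and the stem library 218, against 88.2%, 92.8% and 90.2% of the merged loci with a rhizophore tip locus. Where they were assembled, the median level was 3.93 (microphyll), 4.70 (shoot tip) and 5.45 (stem) FPKM.

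**Figure D1:**
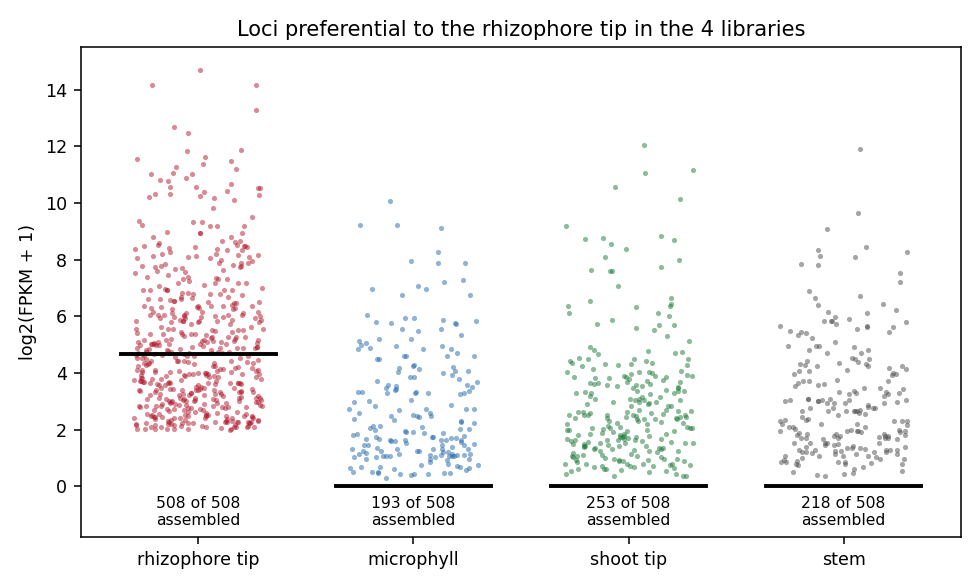
Level of each of the 508 loci as log2(FPKM + 1) in the rhizophore tip, microphyll, shoot tip and stem libraries; each point is a locus assembled in that library, the bars are medians over all 508 with loci not assembled set to 0, and the numbers assembled stand below. The rhizophore tip has all 508 loci with a median of 24.7 FPKM, and the medians of the other 3 libraries are 0.

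Levels were widely spread. In the rhizophore tip 158 of the 508 loci lay below 10 FPKM, 226 from 10 to under 100, 90 from 100 to under 1000 and 34 at 1000 or more. These 34 held 80.2% of the summed rhizophore tip FPKM of the 508. Among the 128 merged loci of at least 300 bp at 1000 FPKM or more in the rhizophore tip, the 34 were 26.6%. Below 10 FPKM the chosen loci were 3.03% of such merged loci from 3 FPKM. Shorter merged loci were left out here, and some lay higher, such as 572956 FPKM on contig 056038 from 1 to 100. Of the 10 merged loci of at least 300 bp with the highest rhizophore tip FPKM, 6 were preferential to it. Of the first 100 it was 33. With only loci of at least 300 bp summed, these numbers were 6 and 20, and 14 of the 34 loci at 1000 FPKM or more had less than 50% of their FPKM in such loci. Of the summed FPKM of merged loci of at least 300 bp, the 508 together held 15.3% in the rhizophore tip. In the other tissues they held 0.594% (microphyll), 1.62% (shoot tip) and 0.860% (stem) of it. By fragments they accounted for 2.49% of the derived total of the rhizophore tip library. The shares were 0.177% of the microphyll, 0.324% of the shoot tip and 0.164% of the stem total. These totals are a wider base. All merged loci of at least 300 bp held 36.9% (rhizophore tip), 33.6% (microphyll), 37.3% (shoot tip) and 36.9% (stem) of them. The shares by FPKM and by fragments are therefore not directly comparable.

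Preference itself was mostly close to the threshold. It was from 2 to under 3 in 269 loci, from 3 to under 4 in 123, from 4 to under 6 in 89, and 6 or more in 27. A preference of at least 3 was met by 0.917% of all merged loci of at least 300 bp. Just inside the threshold was the locus on contig 091030 from 11 to 440, at 65.3 FPKM in the rhizophore tip, against 3.14 (microphyll), 15.6 (shoot tip) and 7.27 (stem), with a preference of 2.00. It consists of short rhizophore tip loci, the longest of 267 bp. Just outside it was the locus on contig 051272 from 6 to 1074, at 3.00 FPKM in the rhizophore tip and not assembled in the other 3 tissues, with a preference of 1.998. On contig 058059 the locus from 2 to 376 was also just outside at 1.99, with 65.4 FPKM in the rhizophore tip, against 1.89 (microphyll) and 15.7 (stem). Loci on either side of the threshold thus differ little from each other, and 1045 merged loci had a preference from 1 to under 2.

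A part of the chosen loci owed their value to short pieces. Although each merged locus was at least 300 bp, in 86 of the 508 (16.9%) most of the rhizophore tip FPKM came from loci shorter than 300 bp within it, against 3.83% of all merged loci with a rhizophore tip locus. When only loci of at least 300 bp were summed, 425 of the 508 kept a preference of at least 2, 83 did not, and 72 of these had a preference of 0 or below. The chosen locus with the highest FPKM was one of them. On contig 056902, from 315 to 3424, the FPKM was 26776 in the rhizophore tip against 9.65 (microphyll), 4258 (shoot tip) and 3808 (stem), but only 0.0085% of the rhizophore tip value lay in loci of at least 300 bp, and without the short loci the preference was -1.70. On contig 068411, from 148 to 576, the rhizophore tip value of 10087 FPKM (95% interval 5941 to 14232) belonged to a locus of 96 bp with 23.7 fragments, against 4.65 (microphyll), 2.06 (shoot tip) and 805 (stem). Both values thus rest on short pieces.

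**Figure D2:**
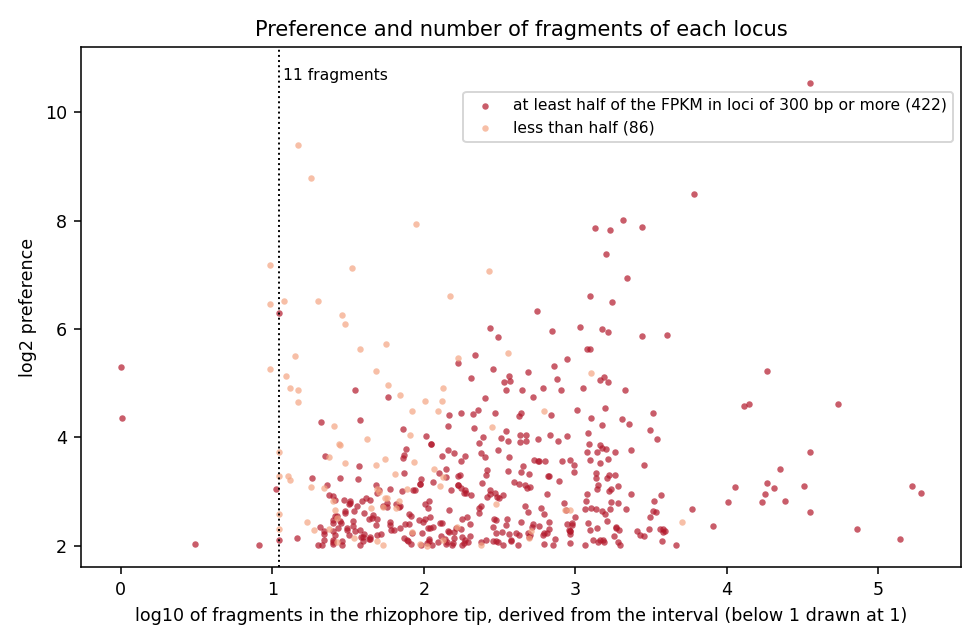
Preference of each of the 508 loci (log2 scale) against the log10 of its number of fragments in the rhizophore tip, derived from the interval; dark points are loci with at least 50% of the FPKM in loci of 300 bp or more (422), light points the other 86, and the dotted line marks 11 fragments. Light points lie mostly at low numbers of fragments, also where the preference is high.

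A locus that a library does not list may still have had a few reads there. In each library the smallest number of fragments commonly implied by the intervals was 11, so each other library was also set at no less than the FPKM of 11 fragments, without a pseudocount. A log2 ratio of at least 2 to this floor was met by 2.05% of all merged loci of at least 300 bp and by 399 of the 508. Both this floor and the restriction to loci of at least 300 bp were passed by 355. The lower bound in the rhizophore tip lay above the upper bound of each other tissue, with the bound taken as 0 where nothing was assembled, in 497 of the 508, and in 16.1% of all merged loci. Among the 289 loci that were assembled in another tissue, 280 had intervals that lie apart in this way. The rule chose loci whose values lie apart, so these counts of intervals apart follow in large part from it. By their interval, 10 of the 508 rested on fewer than 11 fragments in the rhizophore tip, against 3.21% of all merged loci with a rhizophore tip locus, and 3 had a lower bound of 0 there, against 1.32%.

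Loci of the rhizophore tip alone formed the largest class. Of the 508, 219 (43.1%) were assembled in no other library, against 3.84% of all 22241 merged loci with a rhizophore tip locus. A locus near 0 elsewhere passes the rule more readily, so this difference follows in part from the rule. They were the weaker ones, with a median of 7.19 FPKM and 106.0 fragments, and 152 of the 219 passed the floor of 11 fragments. By fragments, 72 had fewer than 50, 116 from 50 to under 500 and 31 had 500 or more.

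Some of these 219 nevertheless rested on many fragments. On contig 004580 the locus from 1926 to 2658 had 1491 FPKM (95% interval 1475 to 1507) in the rhizophore tip, from 35227 fragments, and was listed in none of the microphyll, shoot tip and stem tables. It had the highest preference of all 508, at 10.54, and a log2 ratio of 11.56 to the floor. On contig 067271, from 1 to 547, the FPKM was 359 (350 to 368) from 6088 fragments, again with no locus in the other 3 tissues. These 2 loci had the highest FPKM of the 219, and both consist of a single locus that covers the whole interval.

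The next in number of fragments were chosen after their values were seen. On contig 044509 the locus from 5159 to 6365 had 57.8 FPKM from 2760 fragments, on contig 086529 that from 1 to 431 had 235 FPKM from 2734, and on contig 036083 that from 13 to 569 had 122 FPKM from 2180. Each was listed in the rhizophore tip only. At such depth 11 fragments lie far below the measured value, and their log2 ratios to the floor were 7.89, 7.88 and 7.55.

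The second class, 154 loci (30.3%), was assembled in all 4 libraries, against 83.8% of all merged loci with a rhizophore tip locus. In these the rhizophore tip can be set against a measured level in each tissue. Their median was 125 FPKM in the rhizophore tip, against 5.96 (microphyll), 9.31 (shoot tip) and 8.04 (stem). On the log2 scale without a pseudocount, the median ratio of the rhizophore tip was 4.37 to the microphyll, 3.26 to the shoot tip and 3.88 to the stem. Most of these loci, 139 of 154, passed the floor and 147 had intervals apart.

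The remaining 135 loci were assembled in 1 or 2 of the other libraries. There were 41 with the shoot tip alone, 13 with the microphyll alone and 14 with the stem alone. Shoot tip and stem together gave 41, microphyll and shoot tip 17, and microphyll and stem 9. Among loci with exactly 1 other library, the shoot tip was that library in 60.3% (41 of 68), and over all such merged loci in 57.1% (614 of 1076), so this share is close to the background. On contig 085601 the locus from 6007 to 7431 was shared with the shoot tip alone, with 446 FPKM (95% interval 426 to 466) in the rhizophore tip and 0.738 in the shoot tip. On contig 052787, from 4277 to 5301, it was shared with the stem alone, with 212 FPKM in the rhizophore tip, against 20.6 there. Both rest on loci of over 1000 bp, of 1410 and 1014 bp.

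In several of these smaller classes the loci with the highest FPKM rest on short pieces only. Both leading loci of the microphyll class were of this kind: on contig 049935, from 1 to 937, the 1329 FPKM of the rhizophore tip came from a locus of 104 bp with 18.0 fragments, beside 2.02 FPKM in the microphyll, and on contig 076516, from 42 to 409, the 277 FPKM came from 120 bp, beside 2.02 FPKM in the microphyll. Contig 087283, from 23 to 482, led the shoot tip class with 1295 FPKM from 103 bp and 14.7 fragments, beside 0.929 FPKM in the shoot tip. None of these 3 had any rhizophore tip FPKM in loci of at least 300 bp. In the class of shoot tip and stem, contig 086519 from 1 to 363 had 580 FPKM in the rhizophore tip, against 13.3 (shoot tip) and 30.002 (stem), and kept a preference of 4.61 with loci of at least 300 bp.

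**Figure D3:**
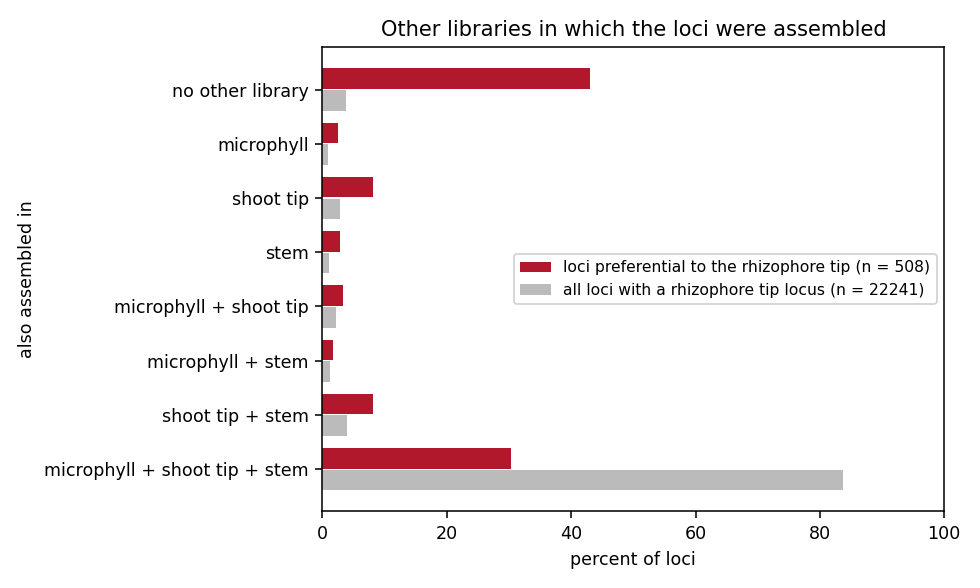
Percent of loci assembled in no other library or in each combination of the microphyll, shoot tip and stem libraries; red bars are the 508 loci preferential to the rhizophore tip, grey bars all 22241 merged loci of at least 300 bp with a rhizophore tip locus. Assembly in no other library is 43.1% against 3.84%, and assembly in all 4 libraries 30.3% against 83.8%.

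The rule uses the highest of the other 3 tissues but not which tissue it is, so it does not fix their order. Among the 289 loci assembled elsewhere, the microphyll was the highest of the other 3 in 48 (16.6%), against 33.9% of the merged loci with a rhizophore tip locus and at least 1 other. The shoot tip was the highest in 143 (49.5%) against 36.9%, and the stem in 98 (33.9%) against 29.2%. The shoot tip was thus most often the next tissue after the rhizophore tip, and the microphyll least often.

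Relative to all merged loci, the microphyll had a lower share and the shoot tip a higher share under FPKM and the other 3 scalings, whereas the order of shoot tip and stem depended on the scaling and on which loci were taken. In TPM the same 289 loci had the microphyll highest in 63 (21.8%), the shoot tip in 92 (31.8%) and the stem in 134 (46.4%), where all merged loci gave 38.8%, 11.6% and 49.6% in the same order. For the 105 loci that the rule called in TPM and that were assembled elsewhere, the shoot tip was the highest in 44, the stem in 40 and the microphyll in 21. With median-of-ratios factors the shares were 18.0%, 46.4% and 35.6%, against 35.3%, 33.0% and 31.6% over all merged loci. With a common sum over merged loci of at least 300 bp the microphyll had 19.0%, against 35.96%, and the shoot tip 48.4%, against 37.9%. Differences by at least 1 on the log2 scale gave 62 loci with the shoot tip clearly highest (21.5% against 8.22%), 31 with the stem (10.7% against 8.04%) and 19 with the microphyll (6.57% against 8.29%). Loci are not independent replicates of a tissue, and these shares describe single libraries.

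The 154 loci assembled in all 4 libraries gave the same order. The microphyll was the highest of the other 3 in 24 of them (15.6%), against 35.9% of the 18635 merged loci assembled in all 4. It was the lowest in 64 (41.6%), against 37.2%. The shoot tip was the highest in 73 (47.4%, against 35.3%) and the stem in 57 (37.0%, against 28.9%).

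A set of abundant loci shared a similar pattern over the 4 tissues. On contig 073645 the locus from 1 to 384 had 18458 FPKM (95% interval 18368 to 18548) in the rhizophore tip against 594 (microphyll), 2161 (shoot tip) and 271 (stem). On contig 070269, from 1 to 413, the values were 18282 (18198 to 18365), 595, 2328 and 311 FPKM in the same order. On both contigs the shoot tip came next, then the microphyll, and the stem was lowest. Contig 093964, from 1 to 373, had 3707, 135, 432 and 58.6 FPKM in this order, contig 062189, from 1 to 320, had 2888, 108, 372 and 43.6 FPKM, and contig 057095, from 1 to 334, had 1500.5, 53.3, 214 and 29.1 FPKM. The levels of these 5 loci span more than 10 times. Their log2 ratios to the rhizophore tip lay from -4.96 to -4.75 in the microphyll and from -3.10 to -2.81 in the shoot tip. In the stem they lay from -6.09 to -5.69. The loci were chosen for similar ratios, as given below, so the narrow ranges follow from the choice.

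These 5 were found by taking the loci whose 3 ratios lie within 0.5 on the log2 scale of those on contig 073645, a choice made after the values were seen. No other merged locus of at least 300 bp met it. This follows largely from the rule, because a locus with such ratios passes it unless its FPKM is low. All 5 begin within the first 5 bases of their contig and are the only locus there. Of all merged loci of at least 300 bp, 33.6% began within the first 5 bases and 72.6% were alone on their contig. They rest on 10155 to 191283 fragments in the rhizophore tip. Of the derived library totals they made up 0.837% (rhizophore tip), 0.0285% (microphyll), 0.103% (shoot tip) and 0.0131% (stem). Of the rhizophore tip fragments of all 508 loci they held 33.6%. Within 1 on the log2 scale there were 11 of the 508, among them contig 038648 from 1 to 302 with 3179, 153, 452 and 61.8 FPKM and contig 083545 from 1 to 359 with 3033, 148, 425 and 86.2 FPKM in the order rhizophore tip, microphyll, shoot tip and stem. What these contigs encode is not annotated, and whether they come from 1 kind of RNA or from the plant was not tested.

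**Figure D4:**
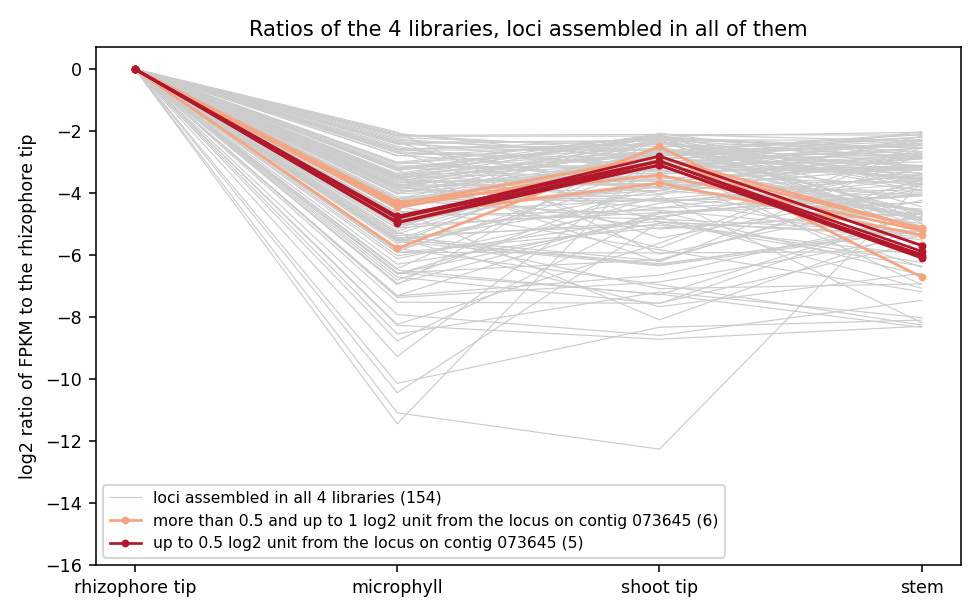
Log2 ratio of the FPKM in each library to that in the rhizophore tip, for the 154 loci assembled in all 4 libraries (grey lines), with the 5 loci within 0.5 of contig 073645 in dark red and 6 more within 1 in light red. The 5 dark lines lie from -4.96 to -4.75 for the microphyll, from -3.10 to -2.81 for the shoot tip and from -6.09 to -5.69 for the stem. Their closeness follows from the choice.

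Other abundant loci assembled in all 4 tissues differed from this pattern. On contig 105729, from 1 to 629, the FPKM was 6572 in the rhizophore tip (95% interval 6537 to 6608) against 558 (microphyll), 1509 (shoot tip) and 230.1 (stem). On contig 073271, from 1 to 459, it was 5648 in the rhizophore tip (5606 to 5690) against 1068 (microphyll), 1142 (shoot tip) and 183 (stem), so microphyll and shoot tip were close there. On contig 055044, from 1 to 318, the FPKM was 3750 in the rhizophore tip (3441 to 4058), against 311 (microphyll), 581 (shoot tip) and 326 (stem), so microphyll and stem were close. Contig 099775, from 5439 to 6293, had 2081 FPKM (2064 to 2099) in the rhizophore tip from 54024 fragments against 23.3 (microphyll), 13.4 (shoot tip) and 83.5 (stem), and here the stem came next.

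The chosen loci were shorter than the rest. Their median length was 664.5 bp (quartiles 421 and 1258), against 1014 bp (549 and 2039) for all merged loci of at least 300 bp. The class from 300 to under 600 bp held 44.1% of the 508 and 28.7% of all, and the class from 2400 bp held 9.45% of the 508 and 19.95% of all. Put the other way, 2.99% of the merged loci from 300 to under 600 bp were preferential to the rhizophore tip, and 0.923% of those from 2400 bp. Loci preferential to other tissues by the same rule were short as well: the median was 665.5 bp for the 442 of the microphyll, 723 bp for the 233 of the shoot tip and 786 bp for the 377 of the stem.

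The 508 were made of more than 1 rhizophore tip locus in 99 cases (19.5%, against 16.6% of all merged loci with one). Of the 289 assembled elsewhere, 114 (39.4%) had their longest locus in the rhizophore tip, against 24.2%. The rule chose these loci for a higher level there, and loci of equal level were not compared. This difference can thus follow from the rule.

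Long loci were nevertheless among the 508. On contig 049447, from 457 to 11263, the FPKM was 152 in the rhizophore tip (95% interval 147 to 158) against 30.03 (microphyll), 15.7 (shoot tip) and 15.9 (stem). On contig 089433, from 707 to 9539, it was 185 in the rhizophore tip (179 to 191) against 0.424 (microphyll), 7.49 (shoot tip) and 10.9 (stem). Each holds 1 rhizophore tip locus, of 10782 and 8447 bp. On contig 073514, from 1965 to 11946, it was 333 FPKM in the rhizophore tip (313 to 352), against 55.3 (microphyll), 68.3 (shoot tip) and 67.8 (stem). Here the intervals were not apart, because the upper bound in the stem was 36021 FPKM. On contig 057782, from 2132 to 10821, 3 rhizophore tip loci gave 406 FPKM together, against 12.2, 51.6 and 27.1. At this length all of the rhizophore tip FPKM lay in loci of at least 300 bp, and all 4 loci passed the floor.

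Compared with the sets of the other tissues, the 508 had a share without another library (43.1%, exact binomial 95% interval 38.8% to 47.5%) close to that of the microphyll set (40.7%, 36.1% to 45.5%). It was above those of the shoot tip set (31.8%, 25.8% to 38.2%) and of the stem set (24.1%, 19.9% to 28.8%). These intervals count loci as independent and cover counting error only. The median level of each set in its own tissue was 24.7 (rhizophore tip), 25.2 (microphyll), 32.2 (shoot tip) and 59.4 FPKM (stem). The sets were not matched for level or depth. Loci at 1000 FPKM or more numbered 34 of 508 in the rhizophore tip set (6.69%), 15 of 442 in the microphyll set (3.39%), 8 of 233 in the shoot tip set (3.43%) and 31 of 377 in the stem set (8.22%). They were 26.6% (rhizophore tip), 14.9% (microphyll), 8.25% (shoot tip) and 26.5% (stem) of all merged loci at this level in their tissue. Each set was also set against the summed FPKM of merged loci of at least 300 bp in its own tissue. The shares were 15.3% (rhizophore tip), 8.02% (microphyll), 10.9% (shoot tip) and 16.99% (stem). With only loci of at least 300 bp summed, these shares were 10.99% (rhizophore tip), 4.04% (microphyll), 2.94% (shoot tip) and 5.37% (stem), so which set held most depended on the short pieces. No test was made between these sets, since each rests on 1 library.

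Position on the contig was as in other loci. Of the 508, 176 (34.6%) began within the first 5 bases of their contig, against 33.6% of all merged loci of at least 300 bp, and 363 (71.5%) were the only merged locus on it, against 72.6%. They lay on 500 contigs, of which 493 carried 1, 6 carried 2 and 1 carried 3. On the contigs of the 145 that had a neighbour there were 208 neighbouring merged loci, 197 of them of at least 300 bp. Of these 197, 15 (7.61%) were themselves preferential to the rhizophore tip, against 1.95% of all. These 15 are the chosen loci that share a contig with another chosen locus, each counted as a neighbour of the other. The 1.95% includes loci alone on their contig. Whether loci on the same contig belong to 1 gene cannot be told from the tables.

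The other 182 neighbours lie below a preference of 2 by definition. Their median preference was -0.20 (quartiles -1.08 and 0.39), against -0.52 (-1.26 and 0.05) over the 25547 merged loci of at least 300 bp that were not chosen, and 18 of them (9.89%) lay from 1 to under 2, against 4.09%. The neighbours with the highest FPKM in another tissue are given here, each with its chosen locus. On contig 079362 a neighbour from 5 to 1445 had 1601 FPKM in the rhizophore tip, against 624 (microphyll), 1084 (shoot tip) and 907 (stem). The chosen locus 115 bp away, from 1561 to 2753, had 10.8 FPKM in the rhizophore tip and 0.878 in the shoot tip, and was not assembled in the microphyll and stem. On contig 095378 the neighbour from 159 to 800 had 862 FPKM in the rhizophore tip, against 1508, 1822 and 3785 in the microphyll, shoot tip and stem, and the chosen locus from 2035 to 2709 had 10.9 FPKM in the rhizophore tip and none elsewhere. On contig 098152 the neighbour from 37 to 6652 differed strongly between the tissues, with 86.8 FPKM in the rhizophore tip, against 493 (microphyll), 1014 (shoot tip) and 77.3 (stem), and the chosen locus from 6798 to 7657 had 7.64 FPKM in the rhizophore tip only. On contig 066946 a neighbour of 144 bp, from 1 to 144, had 477 FPKM in the rhizophore tip, against 573 (microphyll), 850.001 (shoot tip) and 641 (stem), and the chosen locus from 388 to 1655 had 7.13 FPKM in the rhizophore tip only. Abundant neighbours also lay beside stronger loci: on contig 044315, chosen after its values were seen, a neighbour of 737 FPKM in the rhizophore tip lay 58 bp from a chosen locus of 269 FPKM.

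**Figure D5:**
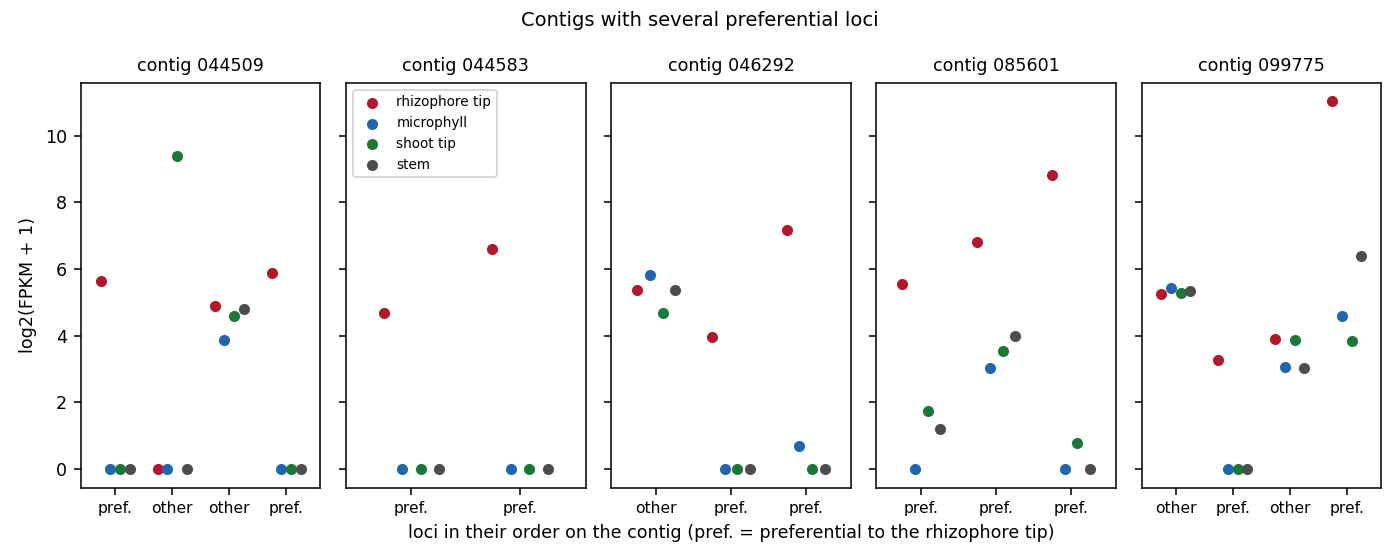
Levels as log2(FPKM + 1) in the 4 libraries of all merged loci on 5 of the contigs with more than 1 preferential locus, in their order on the contig; points at 0 are loci not assembled in that library. On contigs 046292 and 099775 preferential loci stand beside loci listed in all 4 libraries, and on contig 085601 all 3 loci are preferential.

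Contig 085601 carried 3 of the 508 loci in a row. From 4 to 2003 the FPKM was 46.1 in the rhizophore tip, against 2.38 (shoot tip) and 1.30 (stem), with no locus in the microphyll. From 2161 to 5426 it was 112 in the rhizophore tip against 7.12 (microphyll), 10.7 (shoot tip) and 15.0 (stem). The shoot tip value of this locus is poorly determined, with bounds of 0 and 35.8 FPKM and 0.721 implied fragments. The locus that follows is the one at 446 FPKM given above. The preference was 3.80, 2.82 and 8.01 in this order, and no other merged locus lay on the contig. Whether the 3 belong to 1 gene or to several cannot be told from the tables.

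On contig 046292 the locus from 3826 to 4871 had 14.7 FPKM and that from 5252 to 6640 had 143 FPKM in the rhizophore tip, and outside it the only level was 0.602 FPKM of the second locus in the microphyll. The neighbour from 276 to 2434 had 40.2 FPKM in the rhizophore tip, against 55.8 (microphyll), 24.7 (shoot tip) and 40.1 (stem). The neighbour was thus listed in all 4 tissues, with its highest level in the microphyll and its lowest in the shoot tip. Contig 044509 carried loci of 48.5 FPKM from 122 to 1441 and 57.8 FPKM from 5159 to 6365 in the rhizophore tip only. Between them lay a short locus from 1906 to 2009, listed in the shoot tip only at 669 FPKM, and, from 2126 to 5082, a locus of 28.8 FPKM in the rhizophore tip, against 13.6 (microphyll), 23.3 (shoot tip) and 27.0 (stem). On contig 044583, both merged loci were found in the rhizophore tip only, at 24.5 FPKM from 116 to 627 and 96.7 FPKM from 836 to 1286, of which 22.6% and 9.36% lay in loci of at least 300 bp.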

How the data were processed

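Loci of 4 libraries, 1 per tissue, were analysed. After trimming 10 bases from the start of each read, the authors mapped to their ABySS contigs by TopHat and quantified with Cufflinks. Loci in the deposited tables carry FPKM and its bounds, all with status OK. Strands, gene names and counts were not used here, so loci on opposite strands that overlap were merged. Loci overlapping by at least 1 bp were merged and FPKM summed per library, with 0 where no locus was listed, which means not assembled and not absent. Bounds were summed likewise. The number of fragments was (2 FPKM / (upper bound - FPKM)) squared. This understates fragments where the interval is wider than a Poisson interval, as it can be where Cufflinks shares fragments between transcripts. Library totals came from the upper edge of fragments per FPKM against length, in bins of 50 bp from 400 to under 2000 bp.

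The FPKM of 11 fragments in another library was taken from the FPKM per fragment of the locus in the rhizophore tip and the totals of both libraries. Loci were named by a written rule: the highest in FPKM, in preference, in length and in each combination of libraries, those nearest the threshold, contigs with most such loci, and the neighbours with the highest FPKM in another tissue; the text gives fewer where values repeat. The members and lists were chosen with earlier results of these data known. Alternatives covered the pseudocount, scaling, length, preference, low values, intervals, floor, merging and unit. The computation was tested on simulated data. Python 3.11.15, numpy 2.4.6, pandas 2.3.3 and scipy 1.17.1 were used.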

Additional observations from a re-analysis of the deposited data

How the results depend on the processing

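The number of loci preferential to the rhizophore tip, 508 as reported, followed the settings of the rule: 1208 with a pseudocount of 0.1, 232 with one of 5, 284 from 600 bp, 910 with no minimum length, 239 at a preference of at least 3 and 1553 at one of at least 1. In TPM it was 146. FPKM was multiplied there by 0.125 (rhizophore tip), 0.259 (microphyll), 0.150 (shoot tip) and 0.295 (stem). On the log2 scale against their geometric mean, these factors were -0.63, 0.41, -0.38 and 0.60 in the same order. The pseudocount stayed at 1 and so weighed more against the lower TPM values. The effects of scaling and of the pseudocount were not separated in this setting. The number assembled in no other library, 219 as reported, was 836, 59, 94, 508, 115, 537 and 41 in the same order of settings, and 84 from 10 FPKM. Under the other 10 settings the first number stayed within 1.5 times, and under the other 7 the second did. They include 2 for the first and 1 for the second that were chosen after seeing the data: only loci of at least 300 bp summed (540 loci, 425 of them among the 508, and 311 in no other library), and leaving out the 11 loci near the pattern of contig 073645. Some of the 10 only filter the 508: from 10 FPKM (350 loci), intervals apart (497), floor (399), at most 1 locus per library (383). Leaving out the 11 loci (497) does so too, and such settings can only lower the number.

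The share with the shoot tip highest, 49.5%, was 41.9% for the 105 loci called in TPM and assembled elsewhere. Under the other 8 settings it lay within its exact binomial interval of 43.6% to 55.4%. That interval counts loci as independent and does not cover the spread between plants. The median length of 664.5 bp was 573 bp for the longest rhizophore tip locus and 780.0 bp for loci past the floor, and the median of 24.7 FPKM was 17.9 FPKM for the 425 loci, a setting chosen after seeing the data. The number alone on their contig stayed within 1.5 times under all 3 settings run. Of these, the floor (271) and the restriction to loci of at least 300 bp (291) only filter the 508. Depth limits the loci of few fragments: 10 of the 508 had fewer than 11 fragments in the rhizophore tip by their interval. No paired analysis was possible because the tissues were not replicated, and leaving out a replicate could not be tried either.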

Other observations

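Merged loci shorter than 300 bp were outside the rule. Of those assembled in all 4 libraries, 7 had ratios between the tissues within 0.5 on the log2 scale of the locus on contig 073645, as 5 of the 508 loci did. They were 146 to 263 bp long, with 2575 to 112041 FPKM in the rhizophore tip. On contig 036980, from 88 to 233, the FPKM was 112041 in the rhizophore tip, against 3064 (microphyll), 13293 (shoot tip) and 1658 (stem). On contig 037559, from 1 to 210, it was 14701, 434, 1812 and 225 FPKM in the same order. Within 1 on the log2 scale there were 21 such short loci, the highest at 572956 FPKM on contig 056038 from 1 to 100. The set was chosen after its values were seen, loci of this length have FPKM values that rest on a small divisor, and the source of the shared pattern was not tested.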
